A study of Homo sapiens with 4 samples.

Results

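Long intergenic noncoding RNAs named with LINC and a number were described in 2 melanoma cell lines, SK-MEL-28 and A375, each transfected with a control siRNA (siNC) or with an siRNA that targets LINC00622 (siLINC00622). The genes were chosen by their symbol alone, as every listed gene whose name begins with LINC followed by digits, leaving out the targeted LINC00622. This gave 242 of the 17755 genes in the deposited table. Both lines are established, BRAF-mutant human melanoma lines. The labels call the source melanoma tissues, although the samples are cell lines. Cells were held in serum-free medium for 6 h and harvested 24 h after the medium was changed, and poly(A) RNA was sequenced with 1 library for each of the 4 conditions (SK-MEL-28 siNC, SK-MEL-28 siLINC00622, A375 siNC and A375 siLINC00622). No condition has a replicate, so differences between the treatments within a line have no replicate check.

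Long intergenic noncoding RNAs are transcribed by RNA polymerase II from DNA between protein-coding genes, are often spliced and polyadenylated, and carry no long open reading frame. A LINC number is given to such genes when no name from a function is available, so the name covers RNAs of unrelated sequence and position. As a class they are known for low levels and for expression that is restricted to few cell types, and some are used as markers in melanoma, such as LINC00518.

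Library totals lay between 31269923 and 36384819 counts. Of the lineage markers, PMEL, a melanosome protein, was at an FPKM (fragments scaled by gene length and library size) of 940 and 1134 in SK-MEL-28 but 2.24 and 2.35 in A375, and SOX10, a neural crest transcription factor, was at 118 to 153 in all 4 libraries. MLANA, TYR and DCT were low in A375 as well, so A375 was checked by SOX10 alone. A further lineage marker, TYRP1, was low in both lines. Its FPKM was 0.74 and 0.96 for the SK-MEL-28 libraries, against 0.11 and 0.04 for A375. The keratin gene KRT14 had 494 and 504 counts in A375 and 6 and 2 in SK-MEL-28. The part of these differences in the results below was not tested. Other keratinocyte, leukocyte and endothelial markers looked for were not among the listed genes. Whether a lower level of an RNA reflects fewer cells that hold it or fewer molecules per cell cannot be told apart in bulk libraries.

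The targeted LINC00622 went in SK-MEL-28 from 309 to 135 counts, with a log2 ratio of -1.21 (95% Clopper-Pearson interval -1.53 to -0.93), and in A375 from 135 to 86, with a ratio of -0.84 (-1.27 to -0.46). The study lists 2 siRNAs against it, and the sources used here do not name which was transfected for sequencing. Their target sites in LINC00622 are shown because the same words were searched for in the other LINC RNAs. Capitals mark the 7 bases that pair with positions 2 to 8 of the guide strand.
siLINC00622_1: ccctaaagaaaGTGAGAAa
siLINC00622_2: ggcaacctctaATTGACTt

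The 242 genes are mixed in type and position. Matched by identifier to the GENCODE 29 annotation of GRCh38, 199 are annotated as lincRNA, 13 as processed transcript and 13 as antisense, and the rest fall in 8 other types. Among these is LINC02693, which this annotation names C17orf51 and calls protein-coding. Chromosome 1 holds 39 of the genes, chromosome 2 holds 19 and chromosome 5 holds 16. The median distance to the nearest listed protein-coding gene was 43228 bases. Exons of 33 genes overlap exons of another listed gene, 8 of them over more than 20% of their length, and 13 genes have a near-identical copy elsewhere. The library kit, as the study names it, does not mark strand, so reads of overlapping genes on opposite strands cannot be told apart, and counts of near-identical copies are uncertain.

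LINC RNAs were a small and quiet part of these transcriptomes. All 242 together took between 0.137% and 0.149% of a library. Their median FPKM was 0.45 and 0.50 in SK-MEL-28 against 0.66 and 0.73 in A375, in the order siNC and siLINC00622, against 2.71 to 3.04 over all listed genes. Averaged over the 4 libraries, 29 genes lay above the median of all listed genes, 157 were below an FPKM of 1 and 16 were above 5. The table itself has a lower limit, since its lowest mean FPKM over the 4 libraries is 0.25. LINC RNAs under it are not analysed here, and a gene that is silent in a line enters only when the other line brings its mean past the limit. Counts at this level are low. Of the 242, 62 had at least 50 counts in every library, 126 at least 10 in every library, and 7 fewer than 10 in each.

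A few LINC RNAs carried a large share of the LINC reads. The 10 highest by count in a library held between 38.9% and 43.2% of its LINC counts. LINC01293, a 2-exon lincRNA at chr2:74940258-74942670, had the highest mean FPKM, with 34.0 and 30.9 in SK-MEL-28 against 26.3 and 24.0 in A375. It was high in all 4 libraries. By contrast, LINC01029 at chr18:77971294-77993722 had an FPKM of 0.66 and 0.57 in SK-MEL-28 against 55.2 and 51.7 in A375. LINC00520 at chr14:55781132-55796731 showed the reverse, with 22.8 and 29.2 in SK-MEL-28 against 0.19 and 0.25 in A375. Of the 10 genes with the highest mean FPKM, LINC01293 alone was within 4-fold between the lines, and the other 9 were over 4-fold higher in 1 line. These are LINC00520, LINC01918, LINC00504, LINC01116, LINC02732 and LINC01531 in SK-MEL-28, and LINC01029, LINC01419 and LINC02582 in A375. For scale, NORAD, a widely expressed long noncoding RNA that binds Pumilio proteins, had FPKM values from 50.2 to 111, and GAS5, a snoRNA host gene, from 29.5 to 63.8.

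**Figure D1:**
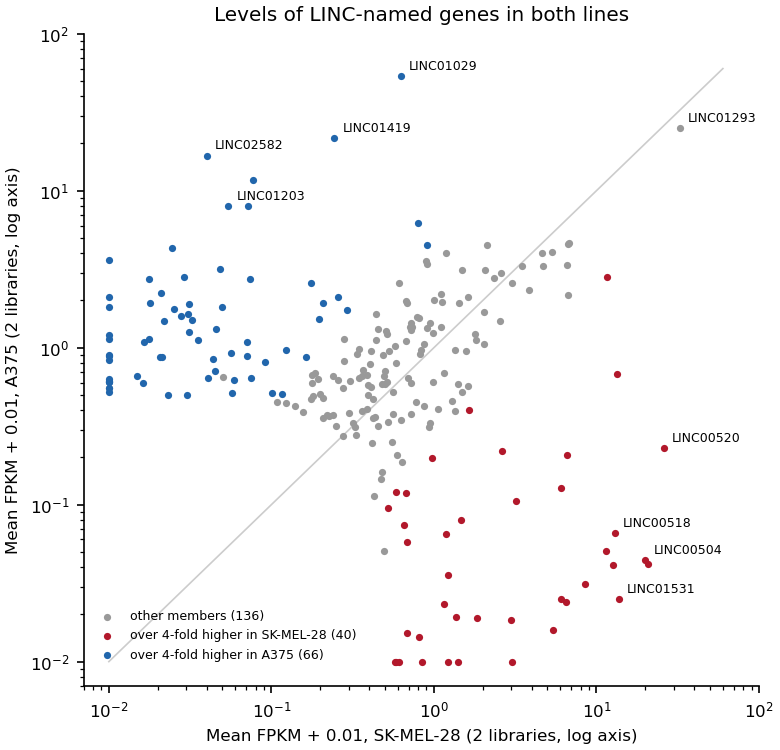
Mean FPKM plus 0.01 of the 242 LINC-named genes, with SK-MEL-28 on the horizontal and A375 on the vertical log axis, each the mean of the line's 2 libraries. The grey line marks equal values. Red points (40) and blue points (66) were over 4-fold higher in SK-MEL-28 and A375 and passed the test, and LINC01293 lies near the line at the upper right.

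The lines differed in most LINC RNAs. By edgeR's quasi-likelihood test of the line, with treatment as a second term, 184 of the 235 LINC genes that reached 10 counts anywhere passed an adjusted p of 0.05, with 77 higher in SK-MEL-28 and 107 higher in A375. Over all genes tested, 67.7% passed, with 33.3% higher in SK-MEL-28 and 34.4% higher in A375. The libraries of a line are its siNC and its siLINC00622 library, and the fit leaves 1 residual degree of freedom. The test therefore holds no measure of spread between replicate cultures of a line. A difference past 4-fold was found in 106 LINC genes (45.1%), 40 higher in SK-MEL-28 and 66 higher in A375, against 19.2% of all genes. The median size of the line difference was 1.77 on the log2 scale for LINC genes and 0.71 for all genes. LINC genes were past 4-fold more often than all genes in each range of counts, from 30.6% against 24.4% where the highest count was 10 to 29, to 59.1% of 22 against 11.1% where it was 1000 or more. Among genes with a mean FPKM of at least 1, the share past 4-fold was 47.1% of 85 LINC genes and 14.2% of all.

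The lower limit of the table bears on this count. Of the 242, 114 reached a mean FPKM of 0.25 in both lines, 45 in SK-MEL-28 alone and 83 in A375 alone. Where the limit was reached in both lines, 7 of 112 tested LINC genes (6.25%) were past 4-fold, against 7.81% of all genes chosen in the same way, and 67 (59.8%) passed the test, against 63.5%. This choice takes out by its construction the genes that are off in a line. Among LINC genes that reached the limit in both lines, the share past 4-fold was not above that of all genes. Their median line difference was still larger, at 0.77 on the log2 scale against 0.58 for all genes chosen in the same way.

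Genes higher in SK-MEL-28 included RNAs that were at or near 0 in A375. LINC01531 at chr19:35399511-35419385 had 1972 and 1815 counts in SK-MEL-28 against 3 and 1 in A375, a scaled ratio of 1072 (95% Clopper-Pearson interval 418 to 3937). LINC01918 at chr2:105144113-105145424 had 579 and 842 counts against 2 and 0, a ratio of 805 (222 to 6651). LINC00504 at chr4:14470465-14888169 had 3709 and 3099 counts against 4 and 8, a ratio of 643 (368 to 1244). These genes were named for their large line difference, so the gap between the libraries of the lines follows from that choice. LINC00958 had 1421 and 1901 counts against 5 and 3, a ratio of 470 (238 to 1090), and lies 17359 bases from TEAD1, a transcription factor of the Hippo pathway. LINC01443 had 1204 and 1212 counts against 3 and 3, a ratio of 456 (209 to 1244). LINC00518, used with PRAME in an RNA test of pigmented lesions, had 828 and 952 counts in SK-MEL-28 against 2 and 6 in A375, a ratio of 252 (128 to 585).

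In A375 the same pattern was seen for other RNAs. LINC02582 at chr18:73324941-73349878 had 3 and 2 counts in SK-MEL-28 against 1139 and 1713 in A375, a scaled ratio of 504 (216 to 1552). Its neighbour LINC02864, 60461 bases away, had 1 and 4 counts against 750 and 1023, a ratio of 313 (134 to 966). Both lie in a stretch of chromosome 18 whose nearest listed protein-coding gene is TIMM21. LINC01819 had 3 and 1 counts against 516 and 713, a ratio of 271 (106 to 997), and LINC01203 had 10 and 11 against 1590 and 2222, a ratio of 160 (105 to 259). LINC00470 had 0 counts in both SK-MEL-28 libraries and 180 and 183 in A375, which makes it at least 53.4-fold higher in A375 when SK-MEL-28 is set to the floor of 3 counts per library.

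Detection followed the same split. With at least 10 counts in both libraries of a line and at most 3 in each library of the other, 17 LINC genes (7.02%) were detected in SK-MEL-28 alone and 37 (15.3%) in A375 alone, against 1.60% and 2.80% of all genes. The 17 include LINC01447 and LINC02660, and the 37 include LINC01186, LINC01242 and LINC01836, all 5 at 0 counts in the other line. At 22 LINC genes both libraries of the lower line were at 0, a count that was not made over all genes. Of 24 LINC names looked for because of roles known from general knowledge, 11 are among the listed genes. Of these, 8 passed the test of the line, 5 higher in SK-MEL-28 and 3 higher in A375, while 67.7% of all genes passed it. LINC00467, LINC00662 and LINC01128 did not pass. LINC00467 had 203 and 200 counts in SK-MEL-28 against 209 and 286 in A375, a ratio of 1.08 in favour of A375 (0.95 to 1.24), and LINC00662 had 359 and 324 against 372 and 340, a ratio of 1.09 in favour of SK-MEL-28 (0.98 to 1.21).

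Most pairs of neighbouring LINC genes had line differences of the same sign. Among 31 pairs of adjacent LINC genes with a gap of at most 500000 bases, 24 had a line difference of the same sign. The same share over adjacent pairs of all genes was not taken. Only the sign was counted, so pairs with a gene near 0 are included, such as LINC01134 at 0.04 and LINC02780 at 5.81. In 6 of the 31 pairs the gene bodies overlap, so that reads may not be separable, and 5 of the 6 had the same sign, against 19 of the 25 pairs that lie apart. LINC02393 and LINC00508 on chromosome 12 had fitted log2 differences of SK-MEL-28 over A375 of -8.45 and -8.60, and LINC01320 and LINC01318 on chromosome 2, whose gene bodies overlap, of 7.37 and 6.65, values that depend on the prior count where a line is near 0. Between a LINC gene and its nearest listed protein-coding gene the sign was the same in 165 of 235 pairs (70.2%), and across these genes Pearson's r was 0.36 and Spearman's rho 0.45. Among 12416 protein-coding genes and their nearest protein-coding neighbour it was the same in 63.0%, with r of 0.23 and rho of 0.31. The share was not higher for close pairs: within 1000 bases 18 of 32 (56.2%) had the same sign, with r of -0.15, against 73.2% of 179 pairs over 5000 bases apart. These pairs share libraries and some share a neighbour, so the values are descriptions. LINC00518 and TFAP2A, a transcription factor of neural crest and melanocytes 9596 bases away, were both higher in SK-MEL-28, where TFAP2A had 3346 and 3045 counts against 700 and 835 in A375. LINC01443 and ANKRD30B were paired likewise, with 1561 and 1699 counts of ANKRD30B against 41 and 46. LINC01029 and MBP, the gene of myelin basic protein, 837611 bases away, went opposite ways, since MBP had 22333 and 32163 counts in SK-MEL-28 against 73 and 73 in A375.

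LINC genes over 4-fold apart between the lines held fewer CpG dinucleotides in their RefSeq start site windows than LINC genes within 4-fold. RefSeq start site windows (250 bases before to 50 after the start, GRCh38.p14) were matched by symbol for 143 of the 242 genes. The median number of CpG was 4 in 20 genes over 4-fold higher in SK-MEL-28, 7 in 36 genes over 4-fold higher in A375 and 15 in 83 genes within 4-fold, against 26 over the windows of 10729 listed genes. The median GC content was 51.5%, 48.2%, 59.3% and 65.3% in the same order. Other listed genes over 4-fold apart were not taken as a comparison. The windows of 4 genes, chosen after their values were seen, show the range, with CpG in capitals. LINC01138 (chr1:148459871-148460170, minus strand, 31 CpG) was within 4-fold between the lines. LINC01531 (chr19:35405357-35405656, plus strand, 4 CpG) and LINC01443 (chr18:14946017-14946316, plus strand, 6 CpG) were restricted to SK-MEL-28. LINC01918 (chr2:105143863-105144162, plus strand, 36 CpG) was restricted to SK-MEL-28 as well and is an exception to the low CpG count. LINC01116, over 4-fold higher in SK-MEL-28, is another, with 34 CpG. For LINC01138 and LINC01531 the RefSeq start lies inside the GENCODE gene body (chr1:148290889-148519604 and chr19:35399511-35419385), not at its annotated start. Most of the LINC01138 window recurs, with few base differences, in that of LINC01145.
LINC01138: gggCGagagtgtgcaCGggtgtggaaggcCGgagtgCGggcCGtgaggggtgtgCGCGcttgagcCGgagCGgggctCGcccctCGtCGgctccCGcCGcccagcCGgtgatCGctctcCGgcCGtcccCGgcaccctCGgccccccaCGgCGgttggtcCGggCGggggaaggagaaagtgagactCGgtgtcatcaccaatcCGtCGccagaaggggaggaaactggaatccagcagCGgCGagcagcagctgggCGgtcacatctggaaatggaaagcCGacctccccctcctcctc
LINC01531: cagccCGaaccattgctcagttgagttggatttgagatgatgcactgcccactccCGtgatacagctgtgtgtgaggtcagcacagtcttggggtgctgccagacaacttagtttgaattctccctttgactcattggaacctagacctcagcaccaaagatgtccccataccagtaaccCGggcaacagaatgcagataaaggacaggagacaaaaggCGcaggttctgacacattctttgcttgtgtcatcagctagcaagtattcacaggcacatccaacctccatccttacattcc
LINC01443: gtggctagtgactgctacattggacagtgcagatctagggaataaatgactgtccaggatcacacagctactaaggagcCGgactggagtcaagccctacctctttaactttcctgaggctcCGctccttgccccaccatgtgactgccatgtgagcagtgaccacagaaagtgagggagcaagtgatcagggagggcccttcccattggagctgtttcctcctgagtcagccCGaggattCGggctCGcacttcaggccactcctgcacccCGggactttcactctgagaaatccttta
LINC01918: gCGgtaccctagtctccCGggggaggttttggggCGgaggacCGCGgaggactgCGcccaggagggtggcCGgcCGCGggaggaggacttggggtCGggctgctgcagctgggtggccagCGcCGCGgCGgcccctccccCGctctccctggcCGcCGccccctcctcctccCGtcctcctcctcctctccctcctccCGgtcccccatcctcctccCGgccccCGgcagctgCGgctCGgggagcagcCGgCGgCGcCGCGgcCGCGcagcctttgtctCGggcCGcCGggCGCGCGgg

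Short motifs were searched on both strands of the same windows. CATGTG, an E-box of the form that MITF can bind, was present in 3 of the 20 windows of genes over 4-fold higher in SK-MEL-28 and 8 of the 36 over 4-fold higher in A375. It was in 13.3% of all matched LINC genes, 6.97% of the 10729 listed genes with a window and 11.2% of 27305 RefSeq windows, listed or not. MITF, the melanocyte regulator, had an FPKM of 80.1 and 74.9 in SK-MEL-28 against 5.29 and 4.95 in A375. CACGTG was in 2 of the 20 and 1 of the 36, against 9.09% of LINC genes, 10.1% of listed genes and 7.43% of all windows. TGANTCA, the AP-1 word, was in 4 and 6, against 20 of the 143 LINC windows, 4.67% of listed genes and 7.76% of all windows. CATTCC, the TEAD word, was in 7 and 10, against 27 of the 143, 11.0% of listed genes and 14.0% of all windows. With so few windows these shares rest on few genes, and a match of letters is not a bound site.

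**Figure D2:**
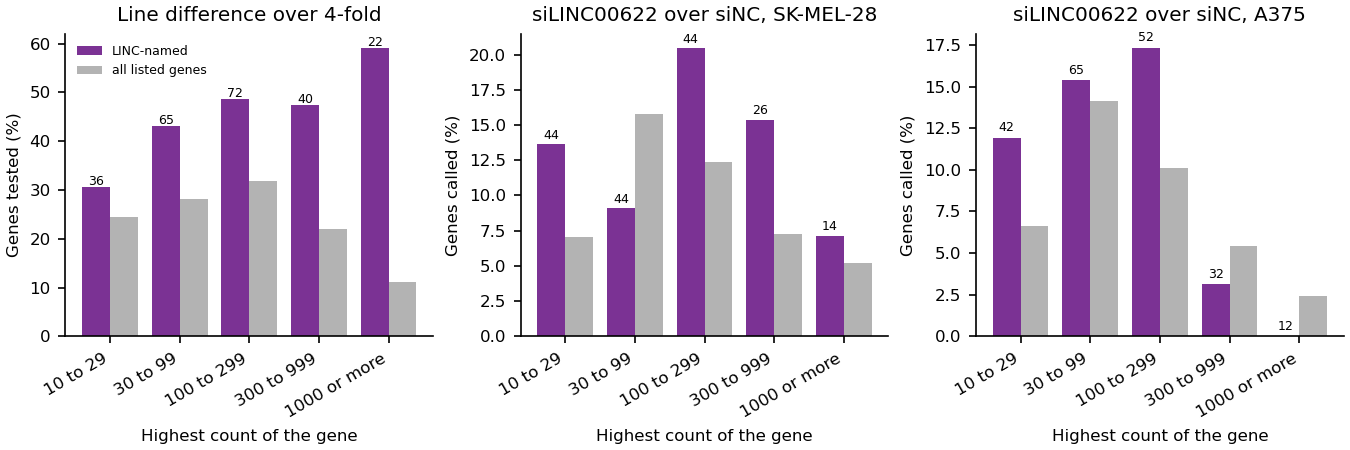
Bars give the percentage of LINC-named genes (purple) and of all listed genes (grey) with a line difference over 4-fold (left) and called with siLINC00622 in SK-MEL-28 (middle) and A375 (right), by range of the highest count of the gene, over all 4 libraries on the left and over the line's 2 libraries elsewhere. Numbers over the purple bars are the LINC genes in each range. On the left the purple bar is the higher in all 5 ranges, and on the right it falls to 0.00% at 1000 counts or more.

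The comparison of siLINC00622 with siNC asked which LINC RNAs other than the target moved with its knockdown. A gene was called when it had at least 10 counts in a library of the line, its scaled count changed past 1.5-fold and the 95% Clopper-Pearson interval of the ratio lay apart from 1. In SK-MEL-28, 24 of 172 LINC genes (14.0%) were called, 16 higher and 8 lower, against 8.06% of all genes, of which 3.02% were higher and 5.04% lower. In A375, 25 of 203 (12.3%) were called, 19 higher and 6 lower, against 5.99% of all genes, with 3.19% higher and 2.80% lower. The interval of the ratio spanned 0 on the log2 scale in 115 of the 172 and 140 of the 203. LINC genes had a median log2 ratio of 0.09 (SK-MEL-28) and 0.13 (A375), against -0.0040 and 0.0043 for all genes. LINC genes had fewer counts than other genes, and the share called differed by range of counts. It was above that of all genes in 4 of 5 ranges in SK-MEL-28, such as 20.5% against 12.3% from 100 to 299 counts, and below it from 30 to 99 counts, with 9.09% against 15.8%. For A375 it was above that of all genes in 3 of 5 ranges, such as 17.3% against 10.1% from 100 to 299 counts, and below it from 300 to 999 counts, with 3.12% against 5.41%, and at 1000 or more, with 0 of 12 against 2.43%. Among genes with a mean FPKM of at least 1, the share called was 9.59% of 73 LINC genes (SK-MEL-28) and 5.56% of 72 (A375), against 6.76% and 4.40% of all.

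These calls reflect counting error alone, with nothing measured between cultures. Across both lines, edgeR's quasi-likelihood test of the treatment with line as a second term, which leaves 1 residual degree of freedom, found 0 LINC genes past an adjusted p of 0.05, against 75 of all genes (0.448%). The lowest adjusted p of a LINC gene was 0.149. At an unadjusted p under 0.05 there were 30 LINC genes (12.8%), 24 higher and 6 lower, against 14.5% of all genes. DESeq2 gave an adjusted p to 29 LINC genes, of which 0 passed. Among all LINC genes in the DESeq2 fit, with or without an adjusted p, 1 had an unadjusted p under 0.05. LINC00622 itself had an adjusted p of 0.101 in the quasi-likelihood test. With an assumed dispersion of 0.1 between cultures, which these libraries cannot estimate, 1 LINC gene was called in each line. These were LINC02660 of 172 tested in SK-MEL-28 and LINC02802 of 203 tested in A375, both higher. Over all genes, 38 were higher and 81 lower of 15442 in SK-MEL-28, and 25 higher and 30 lower of 16021 in A375.

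Of the RNAs that were higher with siLINC00622 in SK-MEL-28, LINC02660 moved most. It had 16 counts with siNC and 62 with siLINC00622, a log2 ratio of 1.80 (1.11 to 2.82), and 0 counts in both A375 libraries. The gene lies 126746 bases from KLF6, a zinc finger transcription factor whose counts were 3749 and 4065 in the same SK-MEL-28 libraries. LINC01145 went from 46 to 100 counts (1.06, 0.57 to 1.63) and in A375 from 109 to 188 (0.57, 0.23 to 0.93), where it missed the fold of 1.5. LINC01145 has a near-identical copy, so its counts are uncertain. LINC01137, which starts next to ZC3H12A, an RNase of immune transcripts, rose from 26 to 55 counts (1.00, 0.35 to 1.78), while ZC3H12A had 108 and 102 counts. LINC02062, next to the chromatin remodeller CHD1, rose from 28 to 54 counts (0.87, 0.23 to 1.63), and LINC00923 rose from 60 to 109 (0.81, 0.36 to 1.31).

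Fewer LINC RNAs were lower in SK-MEL-28. LINC01447 fell from 163 to 81 counts (-1.02, -1.44 to -0.65) and was at 0 in A375. LINC02210, a transcribed pseudogene by annotation, fell from 325 to 183 counts (-0.85, -1.13 to -0.59), and in A375 it had 389 and 341 counts (-0.40, -0.61 to -0.19). LINC00665 fell from 448 to 273 counts (-0.74, -0.97 to -0.53) against 1483 and 1405 in A375 (-0.29, -0.39 to -0.18). For both RNAs the interval in A375 lay below 0 but the change was under 1.5-fold. LINC01505 fell from 360 to 221 counts (-0.73, -0.98 to -0.49). The other 4 lower calls had 27 counts or fewer.

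In A375 the LINC RNA that moved most was LINC02802, with 12 counts with siNC and 58 with siLINC00622, a log2 ratio of 1.91 (1.15 to 3.10). It has 2 near-identical copies. LINC00552 rose from 20 to 60 counts (1.30, 0.62 to 2.18). LINC02732 rose from 33 to 75 counts (0.94, 0.37 to 1.61) in A375 and had 929 and 1169 in SK-MEL-28 (0.30, 0.17 to 0.43), where its level was 22.0-fold higher. LINC01242, on chromosome 9, rose from 36 to 76 counts (0.84, 0.28 to 1.48). LINC01239, also on chromosome 9 and 190460 bases from DMRTA1, rose from 131 to 269 counts (0.82, 0.52 to 1.14). For comparison, PURPL, a long noncoding RNA regulated by p53, went from 207 to 409 counts in the same libraries (0.77, 0.53 to 1.02).

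The lower calls in A375 with at least 50 counts were 4. LINC00707 had the most reads and fell from 671 to 474 counts (-0.71, -0.88 to -0.54). LINC01836 fell from 74 to 53 (-0.67, -1.23 to -0.16), LINC01186 from 85 to 61 (-0.67, -1.19 to -0.20) and LINC02878 from 130 to 95 (-0.65, -1.06 to -0.27). Apart from LINC02878, with 21 and 16 counts in SK-MEL-28, these RNAs had at most 6 counts in a library of that line, where a change was not detectable at this depth.

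**Figure D3:**
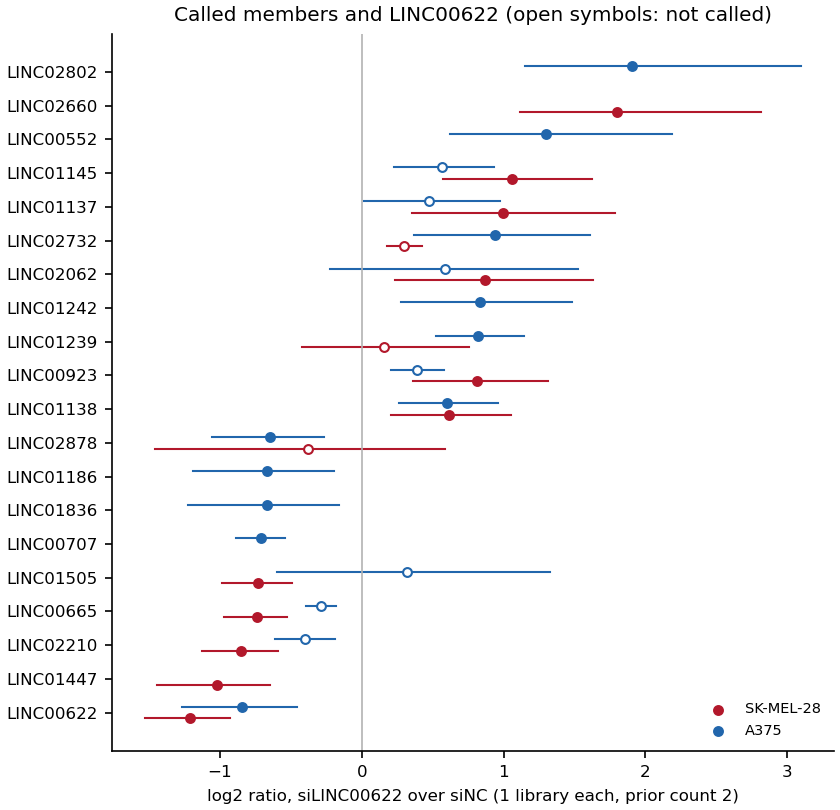
Log2 ratio of siLINC00622 over siNC (horizontal axis, prior count of 2) for the LINC genes with the largest called changes and for LINC00622, with lines for the 95% Clopper-Pearson interval. Filled symbols were called, open symbols were not, and a line under 10 counts has no symbol. LINC00622 and LINC01138 are the genes with filled symbols in both lines, at -1.21 and -0.84 and at 0.61 and 0.60.

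LINC01138 was the single LINC RNA called in both lines. In SK-MEL-28 it rose from 78 to 123 counts (0.61, 0.20 to 1.05), and from 109 to 192 in A375 (0.60, 0.26 to 0.96). Over all genes, 1.32% were called in both lines in the same direction and 0.238% in opposite directions, and 0 LINC genes were called in opposite directions. Among 140 LINC genes with 10 counts in both lines, 88 (62.9%) had log2 ratios of the same sign, against 62.2% of all genes. The ratios of the lines, which share no library, correlated across LINC genes at a Pearson's r of 0.24 (Spearman's rho 0.26), against 0.26 and 0.30 across all genes. With at least 100 counts in at least 1 library of each line, r was 0.60 and rho 0.56 over 46 LINC genes, against 0.43 and 0.42 over all. Genes are not independent replicates, and these are descriptions.

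**Figure D4:**
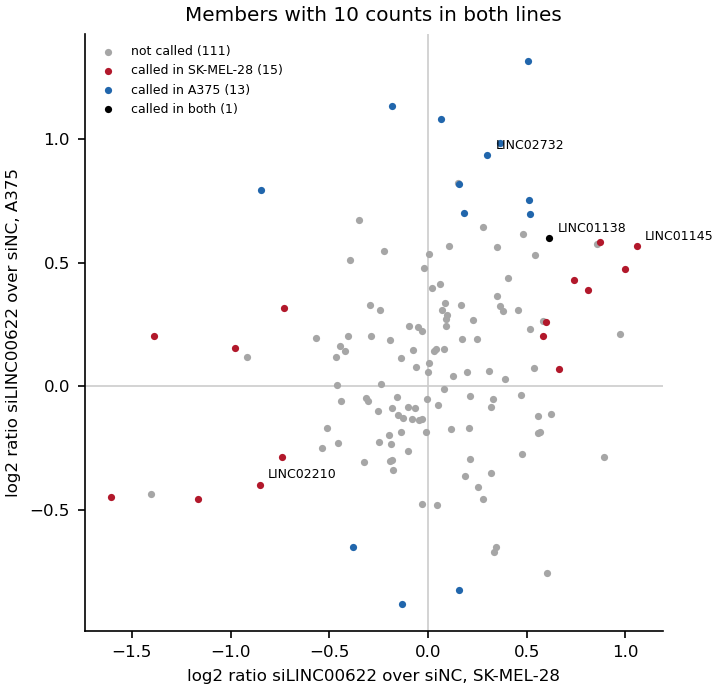
Log2 ratio of siLINC00622 over siNC in SK-MEL-28 (horizontal) and A375 (vertical) for the 140 LINC-named genes that reached 10 counts in each line, 1 point per gene. Red points were called in SK-MEL-28 alone (15), blue in A375 alone (13) and black in both (1, LINC01138).

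LINC01138 lies in a stretch of chromosome 1 that holds other LINC genes with higher ratios, a group picked after its values were seen. Between bases 140000000 and 150000000 of GRCh38 lie 5 of them. LINC01719 went from 22 to 33 counts in SK-MEL-28 (0.52, -0.27 to 1.40) and from 75 to 142 in A375 (0.70, 0.30 to 1.13). LINC00624 had 32 and 49 counts (0.56, -0.09 to 1.27) and 65 and 69 (-0.12, -0.63 to 0.39). With LINC02802 and LINC01145, the log2 ratio was above 0 in 5 of 5 genes in SK-MEL-28 and in 4 of 5 in A375, and 2 and 3 of them were called. Over all genes, 49.5% and 50.7% had a ratio above 0, and 8.06% and 5.99% were called. Nothing is read from these counts, since the group was picked for them. This stretch is rich in duplicated sequence, and LINC02802 and LINC01145 have near-identical copies. The nearest listed protein-coding gene of LINC01138, NBPF14, had 359 and 402 counts in SK-MEL-28 against 972 and 861 in A375.

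Words of the siRNA seeds were found in a smaller share of LINC genes than of all genes. The word GTGAGAA of siLINC00622_1 was in the annotated transcripts of 46 of 172 LINC genes (26.7%) in SK-MEL-28, against 33.9% of all genes, and ATTGACT of siLINC00622_2 in 19 (11.0%), against 22.2%. LINC transcripts are shorter, and those with a word are longer than those without. In SK-MEL-28 the median log2 ratio was 0.04 with GTGAGAA and 0.14 without it, and 0.07 with ATTGACT and 0.11 without. In A375 it was 0.14 with GTGAGAA and 0.12 without, and 0.21 with ATTGACT and 0.10 without. For all genes the medians with GTGAGAA were -0.03 and -0.0026 in SK-MEL-28 and A375, and without it 0.01 and 0.0088. Lower calls in SK-MEL-28 were 3 of the 19 LINC genes with ATTGACT and 5 of the 153 without it, and 3 of the 46 with GTGAGAA and 5 of the 126 without it. Among all genes in that line they were 212 of 3357 with ATTGACT and 556 of 11793 without, and 362 of 5139 with GTGAGAA and 406 of 10011 without. In A375 lower calls were 0 of 25 LINC genes with ATTGACT and 6 of 178 without, and 1 of 56 with GTGAGAA and 5 of 147 without. Among all genes in A375 they were 59 of 3423 with ATTGACT and 357 of 12291 without, and 126 of 5250 with GTGAGAA and 290 of 10464 without. Of the named RNAs that fell in SK-MEL-28, LINC00665 has 2 ATTGACT words, LINC02210 has 2 GTGAGAA words, LINC01505 has 1 of each and LINC01447 has 0 of either. The longest run of a target site found in a LINC transcript other than LINC00622 was 12 bases of siLINC00622_1 in LINC01138, agaaaGTGAGAA, which includes the seed word, and this RNA was higher in both lines. For siLINC00622_2 the longest run was 11 bases, in LINC02604.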

How the data were processed

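Poly(A) RNA of 4 libraries was sequenced as paired-end reads. Per the labels' processing notes, hg19, HISAT, HISAT2, TopHat2 and Bowtie2 were named, without versions or roles. The authors deposited counts per gene without normalization, CPM on library totals, FPKM and TPM. The deposited FPKM equals CPM divided by a gene length, and TPM served for an alternative on abundance. Counts were scaled within each line by TMM (edgeR 4.0.16, R 4.3.3), log2 ratios used a prior count of 2, and line and treatment were tested by edgeR's quasi-likelihood test with Benjamini-Hochberg adjustment over genes with at least 10 counts in 1 of 4 libraries. DESeq2 1.42.0 was an alternative. Folds against a line at 0 used a floor of 3 counts per library. Intervals cover counting error only, since reads carry no molecular identifiers. Positions, exons and transcripts came from GENCODE 29 by identifier, and start site windows from RefSeq. Near-identical copies were found by BLAST+ 2.17.0. Named genes were the 10 with the highest mean FPKM, the 5 with the largest line difference in each line, up to 5 with the largest called rise and fall in each line with at least 50 counts, those called in both lines, and names with known roles. The members and lists were chosen with earlier results of these data known. On simulated counts for 17755 genes, 100 of 100 planted genes were recovered for the line and 100 of 100 for the treatment at a planted log2 change of 2, while 3 and 10 unchanged genes were called. The planted genes had a mean of at least 50 counts, and all genes were given the fitted common dispersion of 0.00895. Recovery at the lower counts of many LINC genes, or with more spread between cultures, was not tested.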

Additional observations from a re-analysis of the deposited data

How the results depend on the processing

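Each condition has 1 library, so leaving out a library was not possible within a line, and in the fit over both lines it leaves no residual degrees of freedom. The treatment was compared across the lines with line as a term, which rests on 1 pair per line. The count of LINC genes called held within 1.5 times under library totals, DESeq2 size factors and no filter. With at least 50 counts, 4 of 113 were lower in SK-MEL-28, against 646 of 12743 over all genes. In A375, 12 of 136 were higher, against 414 of 13505. The SK-MEL-28 median was then 0.0421, against -0.0041 for all genes. Past 2-fold, SK-MEL-28 had 6 higher and 5 lower of 172, against 151 and 250 of 15442 over all genes. A375 had 8 higher and 0 lower of 203, against 139 and 120 of 16021, and 0 LINC genes were called in both lines. With the fold of 1.5 alone, 26 of 172 were higher in SK-MEL-28, against 802 of 15442 over all genes. In A375, 31 were higher and 12 lower of 203, against 797 and 780 of 16021, and 3 LINC genes were called in both lines. With an assumed dispersion of 0.1, each line had 1 higher and 0 lower, and 0 in both lines, so most calls rest on counting error alone. FPKM with a pseudocount of 1 gave median log2 ratios of 0.0367 (SK-MEL-28) and 0.0439 (A375). DESeq2 found 71 LINC genes higher in A375 than in SK-MEL-28. TMM and library totals differ by -0.17 on the log2 scale in the size of SK-MEL-28 against A375 libraries, and with totals 69 LINC genes were higher in SK-MEL-28 and 116 higher in A375. With 0 counts required in the other line, 5 were detected in SK-MEL-28 alone and 13 in A375 alone. All-gene counts are not set beside the values for DESeq2, library totals and 0 counts, so these describe LINC genes only. Where the limit of 0.25 FPKM was reached in both lines, a choice added after seeing the data, 34 were higher in SK-MEL-28 and 33 higher in A375. Leaving out genes with exon overlap over 20% or near-identical copies, also added after seeing the data, kept the counts of calls within 1.5 times.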
